A study of Mus musculus with 6 samples.

Results

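The red pulp macrophage and complement C1q genes examined here are C1qa, C1qb, C1qc, Spic, Vcam1, Hmox1, Slc40a1, Cd5l, Axl and Mertk. They were chosen by gene symbol, and all 10 were found among the 24421 genes of the count table. Each of the 6 libraries was read singly for these genes, because earlier results of the same data had shown high levels of phagocyte genes in the library of KO replicate 1.

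Red pulp macrophages reside in the spleen, where they engulf aged red blood cells and return the iron to the circulation. They depend on the transcription factor SPI-C, which heme induces. Heme oxygenase 1, encoded by Hmox1, breaks down the heme of engulfed red cells, and ferroportin, encoded by Slc40a1, exports the iron. C1q is the recognition subunit of the first complement component, is assembled from the C1qa, C1qb and C1qc chains, and is made mainly by tissue macrophages and some dendritic cells.

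CD4+YFP+ splenic regulatory T (Treg) cells were obtained by sorting from untreated female C57BL/6 mice aged 8 to 11 weeks. The WT group comprised 3 Foxp3Cre mice and the KO group 3 Foxp3Cre miR-142fl/fl mice, with an RNA-seq library from each mouse. Both groups carry Cre fused to yellow fluorescent protein (YFP) under the Foxp3 promoter, and only the KO group carries loxP-flanked miR-142, a microRNA of blood cells. By design, deletion is thus restricted to Foxp3-expressing cells. Whether the other cells in these libraries retained the gene was not tested.

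Library totals lay between 13883069 and 24042994 counts, and 3 counts, taken as the floor of detection, corresponded to 0.125 to 0.216 CPM (counts scaled to a library total of 1000000). Mir142b, the annotation antisense to the deleted microRNA, had 4.2 to 9.49 CPM in WT and 0.337 to 0.376 CPM in KO libraries, and was thus lower in each library labelled KO. Foxp3 lay between 562 and 713 CPM and Cd4 between 807 and 1093 CPM, and the 10 Treg and T cell genes read as a check were all over 1 CPM in every WT library. KO replicate 1 stood apart from the other libraries in the genes described here, so the KO against WT results are given with and without it.

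The 3 C1q genes lie side by side on the minus strand of chromosome 4 within 18675 bases (GRCm38, the build that mm10 names), C1qb from 136880129 to 136886187, C1qc from 136889804 to 136893065 and C1qa from 136895917 to 136898803. C1qa had 1, 6 and 7 counts in WT replicates 1, 2 and 3, and 5079, 86 and 4 counts in KO replicates 1, 2 and 3. C1qb had 1, 4 and 4 counts in WT and 6561, 78 and 3 counts in KO. C1qc had 4, 7 and 3 counts in WT and 5427, 89 and 6 counts in KO. All 3 genes were thus high in KO replicate 1, low but well above WT in KO replicate 2, and near the floor in KO replicate 3 and all WT libraries. In bulk RNA a larger number of cells of a type and more RNA per cell cannot be told apart.

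On the CPM scale the 3 genes together reached 918 CPM in KO replicate 1, 18.2 CPM in KO replicate 2 and 0.877 CPM in KO replicate 3, against 0.387 to 0.787 CPM in WT. The C1qb chain gave 38.4% of the C1q counts in KO replicate 1 and 30.8% in KO replicate 2, with C1qa at 29.8% and 34.0% and C1qc at 31.8% and 35.2%. Per kilobase of the longest coding transcript, the levels in KO replicate 1 were 263 CPM for C1qa, 324 CPM for C1qb and 243 CPM for C1qc, so no chain of the complex was missing from this library. In KO replicate 3 the 95% exact Poisson interval of C1qa was 0.0735 to 0.691 CPM, which covers its WT levels of 0.0645, 0.25 and 0.394 CPM except the lowest. These intervals cover counting error only.

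Spic, Cd5l, Slc40a1 and Mertk showed the same order of libraries. Spic, the gene of SPI-C (chromosome 10, 88674772 to 88685015), had 1, 0 and 1 counts in WT and 1259, 17 and 1 counts in KO. Cd5l (chromosome 3, 87357881 to 87371073) encodes a secreted scavenger receptor cysteine-rich protein of tissue macrophages. It had 2, 0 and 3 counts in WT and 3694, 58 and 2 counts in KO.

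Slc40a1 (chromosome 1, 45908068 to 45926523) had 1, 3 and 14 counts in WT and 4451, 90 and 13 counts in KO. Its WT libraries were the least alike of these 4 genes, from 0.0645 to 0.787 CPM, and KO replicate 3, at 0.877 CPM, lay just above them. Mertk (chromosome 2, 128698956 to 128802894) encodes a receptor tyrosine kinase with which macrophages take up apoptotic cells. Its counts were 1, 3 and 5 in WT and 1824, 29 and 1 in KO, with KO replicate 3 among the WT libraries.

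**Figure D1:**
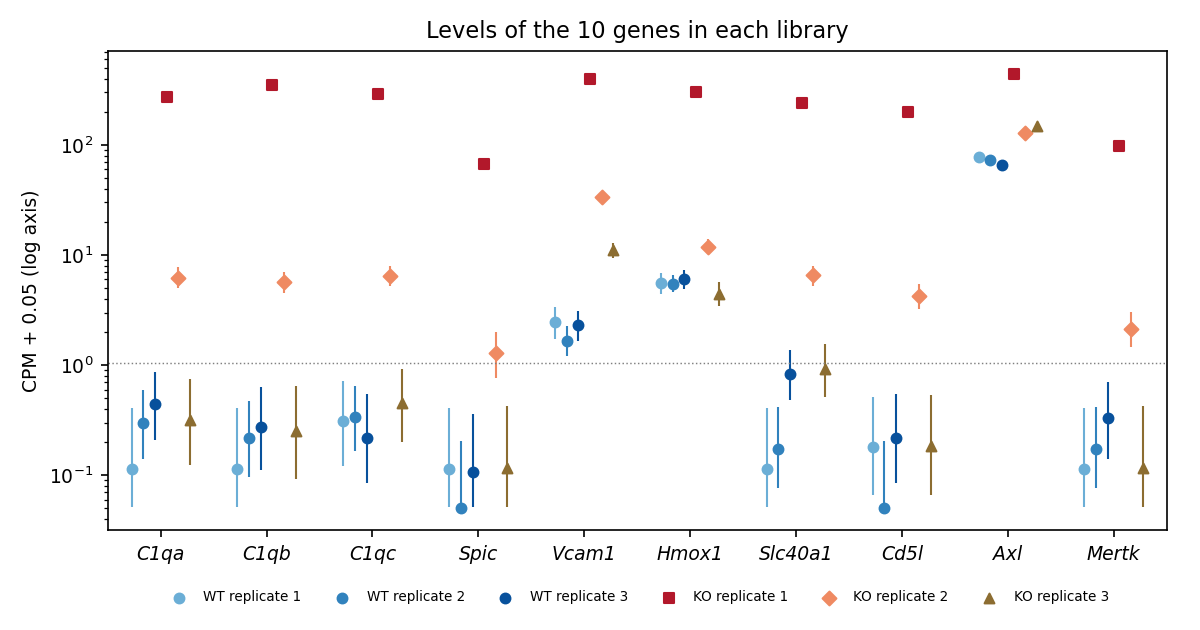
CPM of the 10 genes in each of the 6 libraries (log axis, 0.05 added so that 0 can be drawn; bars are 95% exact Poisson intervals; the dotted line marks 1 CPM). KO replicate 1 is highest for all 10 genes, and in C1qa, C1qb, C1qc, Spic, Slc40a1, Cd5l and Mertk only KO replicates 1 and 2 pass 1 CPM.

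The sequences upstream of the RefSeq start of 4 of these genes are shown because these genes ranked the libraries alike, with KO replicate 1 far above KO replicate 2. RefSeq promoters on GRCm38.p6 were at hand for 6 of the 10 genes. Each run holds the 250 bases before the RefSeq start on the gene's own strand, with matches on either strand to GAGGAA (the PU box that SPI-C and PU.1 bind), TGACNNNGC (the core of the NRF2 element) or GGAANNGAA (an ETS-IRF composite) in capitals. They lie at chr4:136886201-136886450 for C1qb, chr4:136892915-136893164 for C1qc, chr3:87357631-87357880 for Cd5l and chr10:88683024-88683273 for Spic. The Spic window lies inside the gene span given above, and the C1qc window overlaps the span of C1qc. The sequence upstream of the whole Spic span was thus not searched.
C1qb: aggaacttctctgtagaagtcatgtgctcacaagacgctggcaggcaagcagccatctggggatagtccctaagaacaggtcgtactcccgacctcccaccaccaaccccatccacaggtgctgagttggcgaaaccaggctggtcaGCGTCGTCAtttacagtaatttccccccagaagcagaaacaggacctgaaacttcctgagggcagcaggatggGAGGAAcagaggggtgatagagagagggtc
C1qc: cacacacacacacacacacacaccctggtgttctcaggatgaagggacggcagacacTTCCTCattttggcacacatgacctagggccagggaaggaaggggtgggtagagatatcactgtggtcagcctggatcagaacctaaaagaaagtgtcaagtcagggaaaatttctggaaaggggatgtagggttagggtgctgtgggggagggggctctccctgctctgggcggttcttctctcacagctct
Cd5l: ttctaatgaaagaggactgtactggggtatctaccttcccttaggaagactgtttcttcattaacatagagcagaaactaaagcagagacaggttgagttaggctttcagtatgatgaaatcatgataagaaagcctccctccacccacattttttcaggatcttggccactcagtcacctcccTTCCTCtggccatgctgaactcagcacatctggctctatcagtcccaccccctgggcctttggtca
Spic: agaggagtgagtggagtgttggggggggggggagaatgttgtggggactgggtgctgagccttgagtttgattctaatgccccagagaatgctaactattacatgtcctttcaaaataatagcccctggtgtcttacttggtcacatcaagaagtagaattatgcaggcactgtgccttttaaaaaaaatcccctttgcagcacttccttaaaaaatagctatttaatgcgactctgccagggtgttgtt

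A PU box was present in the promoters of C1qb, 25 to 30 bases before the start, of C1qc, 188 to 193 bases before it, of Cd5l, 61 to 66 bases before it, and of Axl, 125 to 130 bases before it. It was present in 23.3% of the 32851 promoters of this length. The C1qb window also held an NRF2 core, found in 10.2% of promoters. The composite motif, present in 6.99% of promoters, was found in none of the 6 windows, and the windows of Spic and Mertk held none of the 3 motifs. These matches describe letters and not binding.

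Vcam1, Hmox1 and Axl differed from the other 7 genes in having more than 1 CPM in all 6 libraries. Vcam1 (chromosome 3, 116109949 to 116129688) encodes an adhesion molecule of red pulp macrophages and of activated endothelium. Its levels were 2.39, 1.62 and 2.25 CPM in WT and 394, 33.4 and 11 CPM in KO, and the groups did not overlap. In KO replicate 3, where the C1q genes were at their WT level, Vcam1 was still above the highest WT library. Its ratio to the summed C1q CPM was 0.429 in KO replicate 1 and 1.83 in KO replicate 2. In the libraries with few C1q counts it was 12.5 (KO replicate 3, 13 C1q counts) and 2.29 to 6.17 (WT, 6 to 17 C1q counts).

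Hmox1 (chromosome 8, 75093621 to 75100589) had 5.49, 5.45 and 5.96 CPM in WT and 303, 11.9 and 4.39 CPM in KO. KO replicate 3 lay below all WT libraries, so the groups overlapped. Axl (chromosome 7, 25757273 to 25788705) encodes a receptor tyrosine kinase of the same family as Mertk. It had 77.4, 73.5 and 65.9 CPM in WT and 444, 128 and 149 CPM in KO. It was the only one of the 10 genes with substantial WT levels, and KO replicates 2 and 3 were close to each other and above WT.

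The KO and WT groups were compared across all genes with edgeR's quasi-likelihood (QLF) test, adjusted by the Benjamini-Hochberg method (FDR). The 11658 genes that exceeded 1 CPM in 3 libraries or more were tested. Of the 10 genes, 3 passed this filter, and 7 did not because only KO replicates 1 and 2 exceeded 1 CPM. Vcam1 and Axl were called higher in KO at an FDR under 0.05, beside 11.6% of all genes tested. The log2 fold change (log2FC) was 6.23 for Vcam1 (SE 1.43, FDR = 0.0251) and 1.82 for Axl (SE 0.46, FDR = 0.0333). For Hmox1 it was 4.33 (SE 1.48, FDR = 0.0823), which did not pass the threshold. Both calls were lost whichever WT library was left out, with an FDR between 0.0899 and 0.116. Over all genes, 5.78%, 4.18% and 4.81% were called higher without WT replicates 1, 2 and 3. The log2 fold changes in these fits were 6.07 to 6.30 for Vcam1 and 1.76 to 1.84 for Axl.

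Without KO replicate 1, the log2 fold change was 3.50 for Vcam1 (SE 0.45, FDR = 0.00221) and 1.01 for Axl (SE 0.10, FDR = 0.000851). Both were called, beside 9.69% of genes called higher in that fit. Hmox1 had 0.60 (SE 0.38, FDR = 0.308). The fold changes of Vcam1 and Axl were thus smaller, and their errors smaller too, when the library with the highest level was absent.

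When all 17585 genes with a count in any library were tested, the 10 genes could all be fitted. Vcam1 and Axl were again the 2 called higher, beside 6.41% of genes. The other 8 had fitted log2 fold changes between 4.29 for Hmox1 and 9.56 for C1qb, with standard errors between 1.44 and 2.68 and an FDR between 0.0611 and 0.101. Leaving KO replicate 1 out of this fit raised the number called to 8, all but Hmox1 and Mertk, beside 8.25% of genes. The log2 fold change was then 4.19 for C1qb (SE 0.96, FDR = 0.0111), 3.73 for C1qa and 3.81 for C1qc. The calls of C1qa, C1qb, C1qc, Spic, Slc40a1 and Cd5l in that fit rested on KO replicate 2. With KO replicates 1 and 2 both left out, a choice made after the values were seen, Vcam1 and Axl alone were called, at 2.46 (SE 0.27, FDR = 0.000186) and 1.10 (SE 0.11, FDR = 9.61e-05), beside 7.52% of genes called higher. That fit assumes that the single remaining KO library varies like the WT libraries. The fitted changes of genes near 0 counts in WT depend on the count that the fit adds and are no bounds.

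**Figure D2:**
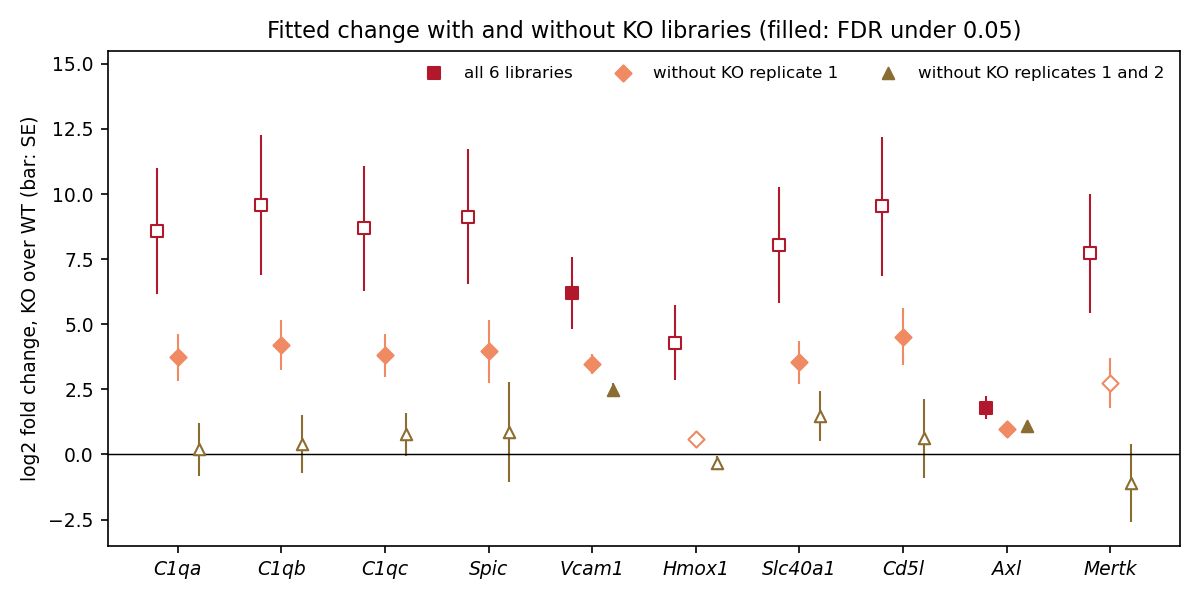
Fitted log2 fold change of KO over WT for the 10 genes (bars are standard errors from the model, no filter on low counts), with all 6 libraries, without KO replicate 1 and without KO replicates 1 and 2; filled symbols have an FDR under 0.05. Vcam1 and Axl are filled in all 3 fits, and the C1q genes fall from between 8.59 and 9.56 to between 0.19 and 0.77.

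The lowest KO library exceeded the highest WT library for 5 of the 10 genes, C1qc, Spic, Vcam1, Slc40a1 and Axl, and for 15.0% of all genes with a count. For C1qc, Spic and Slc40a1 the margin in KO replicate 3 was within counting error, with 6, 1 and 13 counts against 7, 1 and 14 in the WT library with most counts. With 3 libraries against 3, the smallest p of an exact two-sided permutation test is 0.1, and the 10 genes had exact p-values from 0.1 to 0.4.

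Marker genes of other splenic cells were read in the same way. Among the other phagocyte genes, a list of 9 further red pulp macrophage genes summed to 879 CPM in KO replicate 1, 34.4 CPM in KO replicate 2, 8.70 CPM in KO replicate 3 and 2.0 to 3.55 CPM in WT, and all 9 were highest in KO replicate 1. Summed over the 6 libraries, its leading genes were Sirpa, Adgre1, which encodes F4/80, and Mrc1. In KO replicate 1 Sirpa alone gave 442 of the 879 CPM, Adgre1 197 CPM and Mrc1 62.3 CPM. Whether the genes of this list are confined to red pulp macrophages was not tested. A list of 14 general macrophage genes summed to 2810 CPM in KO replicate 1 against at most 90.5 CPM in any other library, with Mpeg1 at 840 CPM and Csf1r, the receptor on which macrophages depend for survival, at 619 CPM.

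KO replicate 1 was not high in red pulp macrophage genes alone. The 11 neutrophil genes summed to 982 CPM there and 12.9 CPM or less elsewhere, 12 conventional dendritic cell genes to 209 CPM and 12.4 CPM or less, and 9 B cell and plasma cell genes to 247 CPM and 24.9 CPM or less. Of 4 nonclassical monocyte genes, Ace and Cd300e had 757 and 606 counts in KO replicate 1 and at most 1 count in any other library, whereas Adgre4 had 916 counts there and 25 in KO replicate 2. Among 5 marginal zone macrophage genes, Marco reached 43.7 CPM and Siglec1 25.1 CPM, while Cd209b, which marks the marginal zone type, had 0 counts in KO replicate 1. Endothelial and stromal genes, 11 in number, summed to 19.2 CPM in KO replicate 1 and 4.25 CPM or less elsewhere, against 394 CPM of Vcam1. Of these, the endothelial genes Stab2 and Kdr had 183 and 71 counts in KO replicate 1 against at most 7 and 3 in WT. They had 22 and 1 counts in KO replicate 2, and 6 and 0 in KO replicate 3. In KO replicate 1 Col3a1 had 1 count and Cxcl12 and Ccl21a had 0. The part of endothelial and stromal cells in the level of Vcam1 was not tested.

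**Figure D3:**
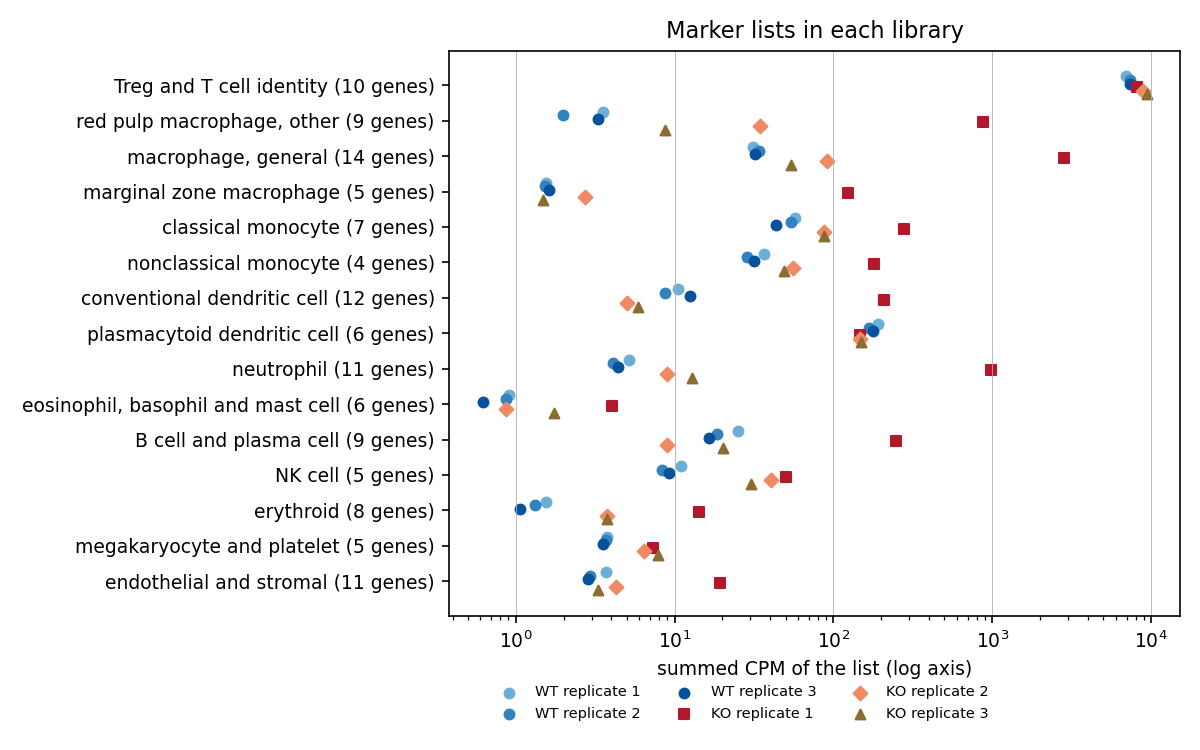
Summed CPM of 15 marker lists in each of the 6 libraries (log axis). The macrophage, monocyte, conventional dendritic cell, neutrophil and B cell lists are highest in KO replicate 1. The plasmacytoid dendritic cell list is not (146 CPM, against 167 to 191 CPM in WT). Its sum is mostly Pacsin1, at 80.9 CPM in KO replicate 1 and 149 to 173 CPM in WT. Of its 6 genes, 5 are highest in KO replicate 1, with Siglech at 168 counts there and at most 1 elsewhere. The Treg and T cell list, at 8162 CPM, lies above WT (6949 to 7352 CPM) and below KO replicates 2 and 3. Its genes do not move together. In KO replicate 1 Il2ra is at 2187 CPM, against 738 to 837 CPM in WT, and Foxp3 is also above WT. Ikzf2, at 1213 CPM (WT 1296 to 1637 CPM), and Cd4, at 807 CPM (WT 1022 to 1093 CPM), are below WT there. The other genes of the list go both ways.

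KO replicates 2 and 3 held these lists in different proportions. For each gene with at least 10 CPM in KO replicate 1 and a WT mean of at most 5% of that level, the level in KO replicate 2 was expressed as a percent of that in KO replicate 1. C1qa was at 2.27% (95% exact binomial interval 1.81 to 2.81), C1qb at 1.59% (1.26 to 1.99) and C1qc at 2.20% (1.76 to 2.71). Spic was at 1.81%, Cd5l at 2.10%, Mertk at 2.13% and Slc40a1 at 2.71%. These 7 genes ranged from 67.7 CPM for Spic to 353 CPM for C1qb in KO replicate 1, whereas their ratios stayed between 1.59% and 2.71%.

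Hmox1 stood at 3.92% and at 2.10% after its WT mean was subtracted from both libraries, which places it among the 7. Vcam1 stood at 8.49%, and at 8.0% after subtraction. Axl did not meet the condition on WT levels. After subtraction its KO replicate 2 level was 15.0% and its KO replicate 3 level 20.7% of the KO replicate 1 level.

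The general macrophage genes Csf1r and Mpeg1, at 1.94% and 1.62%, lay in the range of the 7 genes. Sirpa, Adgre1 and Treml4 of the red pulp list, at 1.40%, 1.46% and 2.03%, lay in or near it. The general macrophage list did not move as one either. Its 11 genes that met the condition ran from 0.301% to 9.80%, with a median of 1.68%. The marginal zone macrophage genes Marco, Nr1h3 and Siglec1 were at 1.15%, 2.22% and 3.73%, so ratios near those of the C1q genes were not confined to the red pulp list. Nr1h3 had 1.22 CPM in KO replicate 2, below its WT levels. Ace and Cd300e were at 0.177% and 0.221%, the dendritic cell integrin Itgax at 0.177%, and Lyz2, shared by monocytes, macrophages and neutrophils, at 0.301%. Other genes of these lists were higher, with the nonclassical monocyte gene Adgre4 at 3.66% (2.35 to 5.43) and the dendritic cell gene Cadm1 at 1.76% (0.906 to 3.09), so neither list moved as one. The 10 neutrophil genes that met the condition were between 0% and 0.246%, with a median of 0%. In KO replicate 3 the order was the other way, with a median of 0.510% for those neutrophil genes and of 0.0997% for the 9 members that met it. S100a9, for example, had 0 CPM in KO replicate 2 and 1.21 CPM in KO replicate 3. Each ratio rests on single libraries, and no test of the difference between libraries was possible.

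Several genes of the red pulp list were higher in KO replicate 2, relative to KO replicate 1, than the C1q genes were. Mrc1, the mannose receptor, was at 13.1% (10.7 to 15.9), Fcna, a ficolin of the lectin pathway of complement, at 11.1% (8.55 to 14.3), Hpgd at 9.17% and Itgad at 8.06%. Cd163, the receptor for haptoglobin-bound hemoglobin, was at 4.03 and 3.31 CPM in these 2 libraries, or 75 and 46 counts, below the 10 CPM required of KO replicate 1.

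**Figure D4:**
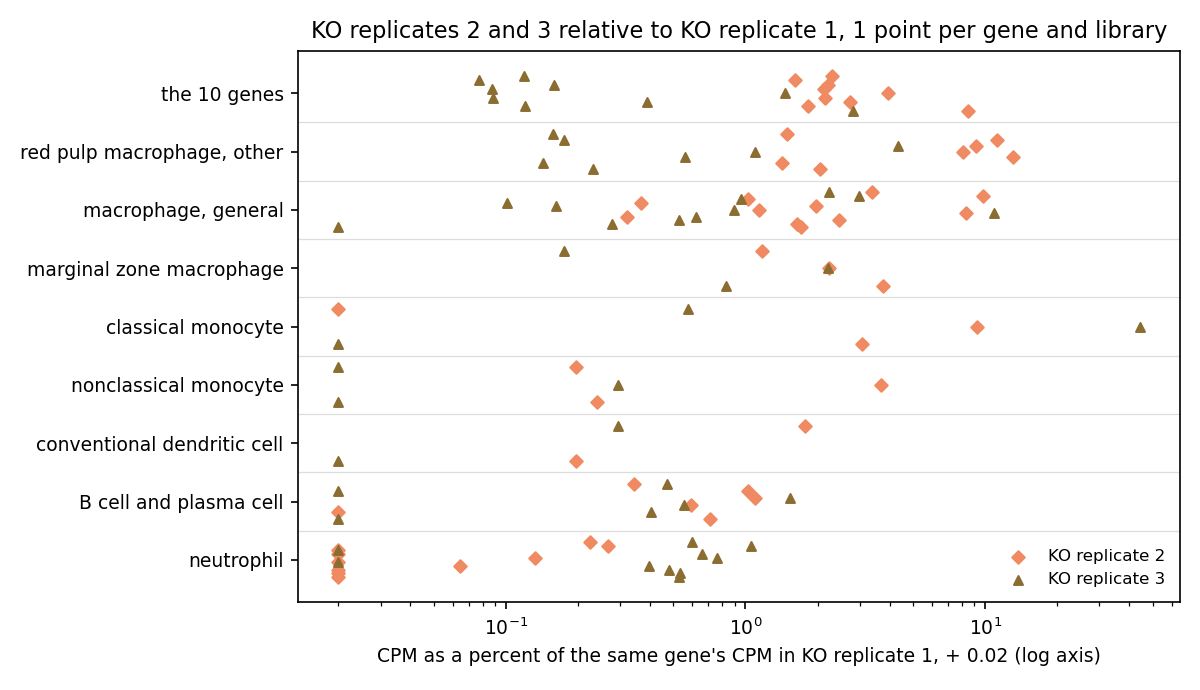
Levels in KO replicates 2 and 3 as a percent of the same gene's level in KO replicate 1 (log axis, 0.02 added so that 0 can be drawn), for genes of 9 lists that met the condition on KO replicate 1 and WT levels. KO replicate 2 lies above KO replicate 3 for all 9 members that met it and for 0 of the 10 neutrophil genes.

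Across the table, 267 genes met the same condition, 9 of the 10 members among them, with a median of 2.20% and an interquartile range of 0.762% to 4.96% in KO replicate 2. The genes whose centred log2 profile over the 6 libraries was nearest to the mean of C1qa, C1qb and C1qc, among 11902 other genes, were Csf1r, Sirpa, Adgre1, Mpeg1, Lrp1, Fcgr4, Pla2g7, Trpm2, Slc11a1 and Wdfy3, at Euclidean distances from 0.45 for Csf1r to 1.93 for Wdfy3. Among the members themselves, Cd5l lay at 0.54, Slc40a1 at 1.14, Mertk at 1.54 and Spic at 1.93, whereas Vcam1, Hmox1 and Axl lay at 2.56, 3.05 and 5.89. The 10 nearest genes to the mean of Spic and Cd5l shared 7 of these names and included Cd300a and Treml4. These distances describe 6 libraries, and KO replicate 1 was the highest of them for all 10 members.

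In the pathways around the members, fewer genes could be tested than were listed. Of 19 other complement genes, 9 were tested, 1 was called higher and 1 lower, beside 11.6% and 7.27% of all genes, with a median log2 fold change of 0.47 against 0.016 over all genes. C5ar2, a second receptor for C5a, had 0, 0.166 and 0.0562 CPM in WT and 3.66, 1.37 and 6.34 CPM in KO (log2FC 5.43, SE 0.83, FDR = 0.00625). This gene passed the filter only because all KO libraries exceeded 1 CPM, so its call is not independent of the filter. Cd55, which limits complement on the cell's own surface, fell by 0.88 on the log2 scale (SE 0.19, FDR = 0.0219), and by 1.01 (SE 0.20, FDR = 0.0132) without KO replicate 1.

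Without KO replicate 1, 8 complement genes were tested, 0 were called higher and 2 lower, beside 9.69% and 7.59%, and the median was -0.013 against -0.016 over all genes. C5ar2 was then not among the genes tested. The 2 called lower were Cd55 and C3 (log2FC -2.29, SE 0.30, FDR = 0.00239). C3 encodes the central complement protein and had 5.87, 7.20 and 6.69 CPM in WT and 183, 0.936 and 1.62 CPM in KO, so that KO replicate 1 lay on the opposite side of WT from the other KO libraries. The proteases that join C1q in the C1 complex were low, with 37 counts of C1ra (1.99 CPM) and 1 count of C1s1 in KO replicate 1.

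Of 16 other iron and heme genes, 13 were tested, 3 were called higher (Blvrb, Slc11a2 and Steap3) and none lower, beside 11.6% and 7.27% of all genes, with a median of 0.59 against 0.016. Without KO replicate 1, 12 were tested and 3 were called higher (Blvrb, Slc11a2 and Slc48a1), beside 9.69% of all genes, and the median was 0.20 against -0.016. Fth1, the ferritin heavy chain, had 407, 423 and 434 CPM in WT and 946, 409 and 445 CPM in KO, high in KO replicate 1 alone, and Slc11a1, an iron transporter of the phagosome, had 130 CPM in KO replicate 1 and at most 1.44 CPM elsewhere. Blvrb, a biliverdin reductase, was also called without KO replicate 1 (log2FC 1.21, SE 0.23, FDR = 0.0115).

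Of 14 other genes of apoptotic cell uptake, 9 were tested, 3 were called higher (Itgav, Pros1 and Stab1) and 1 lower (Tyro3), beside 11.6% and 7.27% of all genes, with a median of 0.94 against 0.016. Without KO replicate 1, 9 were tested, 4 were called higher (Itgav, Mfge8, Pros1 and Stab1) and 1 lower (Tyro3), beside 9.69% and 7.59%, and the median was -0.14 against -0.016. Tyro3, the third receptor of the family of Axl and Mertk, had 17.6, 17.9 and 18.2 CPM in WT and 6.99, 4.32 and 7.35 CPM in KO (log2FC -1.44, SE 0.21, FDR = 0.00526), opposite in direction to Axl. Pros1, the gene of their ligand protein S, had 17.4, 15.6 and 13.7 CPM in WT and 30.2, 35.4 and 44.5 CPM in KO (log2FC 1.32, SE 0.16, FDR = 0.00324). Gas6, the gene of the other ligand, had 32 counts in KO replicate 1, 2 in KO replicate 2 and 0 in the other libraries. Tyro3 and Pros1 were also called without KO replicate 1, at -1.55 and 1.43, and neither gene's KO levels overlapped its WT levels.

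The longest annotated 3′ UTR of each member was searched for 7-base complements of the miR-142 seeds (GENCODE vM21). The mature microRNAs are shown with the seed, bases 2 to 8, in capitals, since these bases set which transcripts are bound.
mmu-miR-142a-3p: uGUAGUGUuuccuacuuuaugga
mmu-miR-142a-5p: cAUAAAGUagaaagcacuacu

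None of the 10 searched 3′ UTRs held a miR-142-3p site, ACACTAC or AACACTA, which 6.29% and 9.22% of 19529 genes held. A miR-142-5p site, ACTTTAT, which 14.8% of genes held, was found in 3 members, Axl and Vcam1, which were called higher, and Spic. The sites, in capitals with their neighbouring bases, lie at chr7:25758227-25758233 in Axl, chr3:116122311-116122317 in Vcam1 and chr10:88675231-88675237 in Spic, all on the minus strand. The Vcam1 site lies in a 3′ UTR of an alternative transcript that ends within the gene. The 3′ UTR of Vcam1 transcripts that reach the end of the gene was thus not searched for either microRNA. Binding at these sites was not measured.
Axl: cttctagACTTTATttttctg
Vcam1: agatactACTTTATattgaac
Spic: tgcaaacACTTTATgtctaga

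The 10 genes took 0.266% of all counts in KO replicate 1, 0.0205% in KO replicate 2, 0.0167% in KO replicate 3 and between 0.00762% and 0.00860% in WT. The part of other cells in the levels of Axl, Vcam1 and the other members was not tested. Axl and Vcam1 were above all WT libraries in KO replicate 3, in which the C1q genes, Spic, Cd5l and Mertk had 1 to 6 counts each. Slc40a1 had 13 counts there (0.877 CPM, just above WT) and Hmox1 had 65 (4.39 CPM, below WT).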

How the data were processed

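The authors aligned 51-base single-end reads to mm10 with HISAT and counted them per gene with featureCounts without regard to strand (versions and the gene annotation are not given in the sources used here). They deposited raw counts per gene for 6 libraries, WT and KO replicates 1 to 3, without normalization, and all 6 sample columns were used. The antisense genes annotated over Vcam1 and Mertk could share reads with them.

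CPM are counts divided by the library total. Genes above 1 CPM in 3 or more libraries entered the edgeR 4.0.16 QLF test (R 4.3.3, TMM scaling, FDR under 0.05), and DESeq2 1.42.0 was an alternative. Standard errors were taken from the fold change and the F statistic. The fit was tested on simulated counts of 11578 genes, where it called 100% of genes changed by 4-fold and 62.0% of those changed by 2-fold. Recovery of genes far higher in a single library than in the others was not tested. Hmox1 had 303 CPM in KO replicate 1 and 11.9 CPM in KO replicate 2. The QLF test with all 6 libraries did not call it at a log2 fold change of 4.33 (FDR = 0.0823). Gene positions and transcript lengths came from GENCODE vM21 on GRCm38. Permutation tests used log2 of CPM plus 0.5.

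The members, the 18 gene lists, the tests and the rule for named genes (the members, checks of the labels, the 3 highest or any called genes of each list, the 10 nearest genes by profile) were chosen with earlier results of these data known. The ratios to KO replicate 1, and the values of Lyz2, Cd163, Hpgd, Itgad, Fcna, Cd300e, Siglech, Kdr, Col3a1, C1ra, C1s1 and Gas6, which fall outside that rule, were chosen after the values were seen. Of the listed genes, 2 stand in 2 lists each, and 1 gene is not reported here. Ly6g was not analysed here. Replicate numbers were not taken as pairs.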

Additional observations from a re-analysis of the deposited data

How the results depend on the processing

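With all 6 libraries, 2197 of 11658 genes, 2 members and 23 genes of the other lists were called. Leaving out 1 library at a time gave 691 to 2340 genes, 0 to 3 members and 12 to 27 list genes. Each of the 3 fits without a WT library called 0 members, beside 4.18% to 5.78% of genes called higher. Unadjusted QLF p-values were under 0.05 for Vcam1 and Axl in each of these fits. The fits without KO replicates 1, 2 and 3 called 2, 2 and 3 members, beside 9.69%, 12.3% and 7.62% of genes called higher. The cause of this difference was not tested. Without the filter and without KO replicate 1, 8 members were called, beside 8.25% of genes called higher. In the other alternatives (RLE scaling, library size alone, likelihood ratio and exact tests, DESeq2, the filter of filterByExpr, no filter), 2 or 3 members were called, beside 6.41% to 14.3% of genes called higher. Library size alone moved the split of all calls from 1350 higher and 847 lower to 1064 and 1201, and left Vcam1 and Axl higher. Hmox1 passed the threshold in the likelihood ratio and exact tests and without KO replicate 3 (log2 fold changes 4.32, 4.32 and 4.88), and DESeq2 gave it no p-value. Slc40a1 passed under filterByExpr, with 8.07. Without KO replicates 1 and 2, Hmox1 reversed to -0.31 and Mertk to -1.10, neither called. The replicate numbers did not pair the libraries (correlations of same-numbered deviations from -0.197 to 0.0758). A replicate block gave 1606 genes and 2 members, with log2 fold changes of 4.95 for Vcam1, 1.58 for Axl and 2.18 for Hmox1. Low counts limit what can be said of the 7 members near the floor in WT.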

Other observations

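Outside the members, Stab1, Pparg and Lgmn are macrophage genes that were higher in all KO libraries, and in each KO replicate 3 exceeded KO replicate 2, unlike the C1q genes. Stab1, a scavenger receptor, had 3.42, 1.91 and 2.70 CPM in WT and 62.0, 25.9 and 36.1 CPM in KO (log2FC 4.05, SE 0.38, FDR = 0.00129). Without KO replicate 1 its log2FC was 3.62 (FDR = 0.000144). Pparg, a nuclear receptor of red pulp macrophages and of tissue Treg cells, had 1.94, 1.0 and 1.12 CPM in WT and 15.7, 3.46 and 6.21 CPM in KO (log2FC 2.75, SE 0.59, FDR = 0.0199). Without KO replicate 1 its log2FC was 1.93 (FDR = 0.0111). Lgmn, a lysosomal protease, had 13.9, 16.3 and 11.4 CPM in WT and 295, 24.5 and 32.2 CPM in KO, with a log2FC of 3.16 (SE 0.95, FDR = 0.0575), and of 1.09 (SE 0.19, FDR = 0.00702) without KO replicate 1. Genes with this pattern were not counted over the table.

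Fn1, which encodes fibronectin and stood on the monocyte list, had 0.581, 0.707 and 0.450 CPM in WT and 43.0, 3.96 and 19.0 CPM in KO (log2FC 5.29, SE 0.87, FDR = 0.00837), and it was not tested without KO replicate 1. Fn1 passed the filter only through the KO libraries, so its call is not independent of the filter. It was higher in KO replicate 3 than in KO replicate 2, the opposite order to the C1q genes. The genes of hemoglobin chains were listed at 0 in all 6 libraries, so red blood cells could not be read from them.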
